A study of Mus musculus with 13 samples.

Results

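The serotonergic neuron genes examined here are *Tph2*, *Slc6a4*, *Fev*, *Lmx1b*, *Htr1a*, *Htr1b* and *Slc22a3*. They were chosen by symbol, and 3 of the 7 (*Tph2*, *Slc6a4* and *Htr1a*) are among the 12009 genes of the count table analysed, while *Fev*, *Lmx1b*, *Htr1b* and *Slc22a3* were not analysed here. Serotonergic neurons of the hindbrain raphe nuclei make serotonin (5-HT) from tryptophan with the brain form of tryptophan hydroxylase (TPH2), take it back up through the serotonin transporter (SERT, encoded by *Slc6a4*), and slow their own firing through the 5-HT1A receptor (*Htr1a*) on their cell bodies. Noradrenergic neurons of the locus coeruleus (LC) lie in the same stretch of brainstem and share with them the vesicular transporter VMAT2 (*Slc18a2*) and the decarboxylase AADC (*Ddc*), but make norepinephrine and take it up through the norepinephrine transporter (NET, *Slc6a2*). The genes therefore ask how much RNA of a neighboring monoamine system was recovered with a noradrenergic tag, and whether it changed after a toxin that enters cells through NET.

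All mice were *Slc6a2*-*eGFP*/*Rpl10a*, a line in which the *Slc6a2* promoter drives an EGFP-tagged ribosomal protein, so that translating ribosome affinity purification (TRAP) pulls down the mRNA held by tagged ribosomes. They received 50 mg/kg of DSP-4, a neurotoxin taken up through NET, or saline on days 1 and 7, and were collected on day 14. Each replicate was the hindbrain, without the cerebellum, of 2 pooled mice of 1 sex and treatment, aged 6 to 8 months, and was sequenced as the TRAP fraction, as the whole-hindbrain homogenate (input), or as both. There were 6 DSP-4 TRAP libraries (replicates 1, 2, 3, 7, 8 and 9), 3 saline TRAP libraries (4, 6 and 12), 2 DSP-4 input libraries (2 and 7) and 2 saline input libraries (5 and 12). Wild-type mice without the tag, which would show the RNA recovered without tagged ribosomes, were not analysed here, and in bulk RNA fewer cells of a type and less RNA per cell cannot be told apart. Libraries held 17491357 to 29199550 counts. DSP-4 TRAP replicates 2 and 3 stood apart, with 20 and 22 genes at 0 against 0 to 6 in each of the other libraries, and the results that rest on them are given with and without them. *Slc6a2*, which drives the tag, stood at 124 ± 5.16 CPM (counts scaled to library size, SD, n = 3) in saline TRAP. It stood at 4.62 ± 0.611 (n = 2) in saline input and at 44.9 ± 16.4 (n = 6) in DSP-4 TRAP. By the methods, saline samples had been kept by their enrichment of *Slc6a2* in TRAP.

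*Tph2* lies on the minus strand of chromosome 10 (GRCm38, chr10:115078641-115185022), *Slc6a4* on the plus strand of chromosome 11 (chr11:76998603-77032340), and *Htr1a* on the plus strand of chromosome 13 (chr13:105443639-105448122). No other annotated gene overlaps the exons of these 3. The promoters of *Tph2* and *Slc6a4* are shown because the levels of these 2 genes moved together across libraries as given library by library later. Each runs from 250 bases before to 50 bases after the RefSeq start (GRCm38.p6), 5′ to 3′ on the strand of the gene, at chr10:115184973-115185272 for *Tph2* and chr11:76998347-76998646 for *Slc6a4*. Capitals mark GGAA or its complement TTCC, the core bound by factors of the ETS family, to which the serotonergic regulator FEV (also called Pet-1) belongs.
Tph2: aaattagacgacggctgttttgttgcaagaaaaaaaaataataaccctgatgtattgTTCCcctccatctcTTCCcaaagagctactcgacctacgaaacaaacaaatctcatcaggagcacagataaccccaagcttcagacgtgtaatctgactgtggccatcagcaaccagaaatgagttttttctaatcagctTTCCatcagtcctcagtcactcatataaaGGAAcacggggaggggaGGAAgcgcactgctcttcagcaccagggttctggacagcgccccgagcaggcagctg
Slc6a4: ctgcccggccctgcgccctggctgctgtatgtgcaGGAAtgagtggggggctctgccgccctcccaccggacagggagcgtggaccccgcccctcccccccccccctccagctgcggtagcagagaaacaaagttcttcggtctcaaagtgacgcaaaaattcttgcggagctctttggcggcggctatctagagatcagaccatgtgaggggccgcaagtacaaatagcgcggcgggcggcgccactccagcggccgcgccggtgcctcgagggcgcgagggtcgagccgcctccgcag
The *Tph2* window held 5 copies of the core and the *Slc6a4* window 1. The core is so short that 95.9% of 27025 promoters of the same length hold it on 1 strand or the other. *Tph2* also has a TATAA sequence, read on the strand of the gene, that begins 30 bases before the start. TATAA is in 18.2% of the promoters read in the same way and is missing from the *Slc6a4* window. The windows also differ in base composition, with a GC content of 47.3% for *Tph2* and 67.7% for *Slc6a4*. The match of a motif is a description of the letters and says nothing of binding.

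*Tph2* was the most abundant of the 3 serotonergic genes in both fractions. Per kilobase of exon, its level in saline TRAP was 34.7 ± 6.84 CPM per kb (SD, n = 3), above that of *Slc6a2* at 19.7 ± 0.820. The noradrenergic genes *Dbh* (50.4), *Th* (59.4) and *Gal* (131) had higher means than *Tph2* on this scale. *Slc6a4* stood at 6.27 ± 0.236 CPM per kb and *Htr1a* at 4.75 ± 0.0537. Without *Dbh*, *Th* and *Gal*, the order in TRAP was *Tph2*, *Slc6a2*, *Slc6a4*, *Htr1a*, with each gene's saline libraries apart from those of the next. In saline input the same scale gave 16.7 for *Tph2*, 4.42 for *Slc6a4*, 4.41 for *Htr1a* and 0.735 for *Slc6a2*. On this scale *Slc6a4* and *Htr1a* did not differ there beyond the spread of the 2 libraries, and *Slc6a2* was the lowest of the 4. In saline input *Dbh* was at 3.84, *Th* at 21.2 and *Gal* at 17.8 CPM per kb. The length used joins all annotated exons of a gene. It is 4531 bases for *Slc6a4*, whose longest transcript has 2796, and 4484 bases by either measure for *Htr1a*. The likeness of these 2 genes in input therefore depends on the length chosen.

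**Figure D1:**
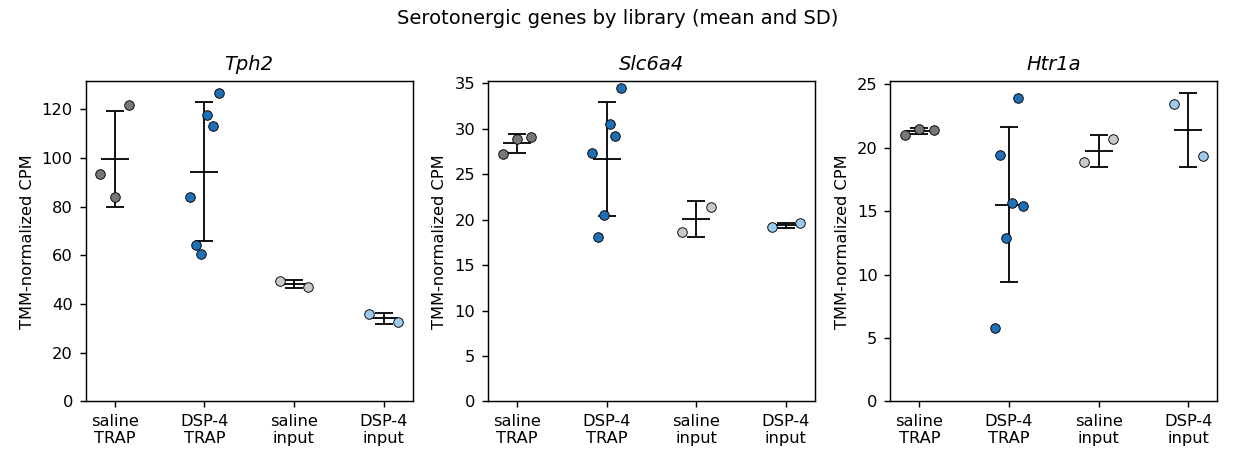
Levels of *Tph2*, *Slc6a4* and *Htr1a* (TMM-normalized CPM, linear axes from 0) in each library, grouped by treatment and fraction. Each point is 1 library and the bars are the mean and SD of the group. *Tph2* spans 60.6 to 127 CPM in TRAP and 32.6 to 49.4 CPM in input, with no overlap, while the *Htr1a* points of TRAP and input overlap.

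Transcripts of *Tph2* were a larger share of TRAP than of the homogenate in both treatments. In saline mice its level was 93.6, 83.9 and 122 CPM in TRAP replicates 4, 6 and 12 and 49.4 and 47.0 CPM in input replicates 5 and 12. In DSP-4 mice the 6 TRAP libraries ranged from 60.6 to 127 CPM with a median of 98.4, against 35.8 and 32.6 CPM in input replicates 2 and 7. Every one of the 9 TRAP libraries was above every one of the 4 input libraries, a separation shown upward by 18.2% of all genes.

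The enrichment of *Tph2* over input passed the test in both treatments (edgeR quasi-likelihood test, FDR threshold of 0.1). In saline mice the log2 fold change (logFC) was 1.05 ± 0.30 (SE), a 2.07-fold difference (95% confidence interval of the logFC 0.42 to 1.68, FDR = 0.0171), and 19.5% of genes were called higher in TRAP. In DSP-4 mice logFC was 1.46 ± 0.28 (0.86 to 2.07, FDR = 0.000716), where 27.3% of genes were called higher. *Slc6a2* gave 4.75 (3.80 to 5.69) and 3.81 (2.93 to 4.69) in the same tests, so the intervals of the 2 genes lay apart in each treatment. By the size of its logFC in saline mice *Tph2* ranked 993rd of 12009 genes and *Slc6a2* ranked 2nd. The call in saline mice rested on saline input replicate 12, without which logFC was 1.01 and FDR = 0.120. In DSP-4 mice logFC was 1.69 without DSP-4 TRAP replicates 2 and 3 (edgeR FDR = 5.06e-06).

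*Slc6a4*, the transporter that defines the serotonergic uptake system, gave a smaller estimate, whose difference from that of *Tph2* was not tested. Its level in saline mice was 27.2, 28.9 and 29.1 CPM in TRAP and 18.6 and 21.5 CPM in input, and the TRAP libraries were all above the input libraries, as for 29.6% of genes. In DSP-4 mice TRAP ranged from 18.1 to 34.4 CPM with a median of 28.3, and input was 19.2 and 19.6 CPM. Only DSP-4 TRAP replicate 2, at 18.1 CPM, was below both DSP-4 input libraries, while replicate 3, at 20.5 CPM, was just above them.

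Neither treatment alone gave a call for *Slc6a4*, with logFC of 0.50 ± 0.26 in saline mice (95% interval −0.04 to 1.05, FDR = 0.160) and 0.46 ± 0.23 in DSP-4 mice (−0.04 to 0.95, FDR = 0.123). Taken over both treatments, logFC was 0.48 ± 0.17 (0.11 to 0.85) with FDR = 0.0285 by the same edgeR test, in a comparison that called 31.1% of genes higher. This call was lost without saline input replicate 5 (logFC 0.42, FDR = 0.110) and with the replicate number as a fixed block (logFC 0.36, FDR = 0.410), and it held with the number as a random block in limma (logFC 0.45, FDR = 0.0277). Without DSP-4 TRAP replicates 2 and 3 the difference in DSP-4 mice was 0.65 and passed (FDR = 0.00429), as it did without replicate 2 alone (0.55, FDR = 0.0300) or replicate 3 alone (0.52, FDR = 0.0684). The value in saline mice stayed at 0.50 without those 2 libraries but passed (FDR = 0.0321), and it passed too without replicate 2 alone (FDR = 0.0772).

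*Htr1a*, an inhibitory receptor that is an autoreceptor in raphe neurons and is also made by many neurons that receive serotonin, was not called in either treatment. Its level was 21.0, 21.4 and 21.4 CPM in saline TRAP and 18.9 and 20.6 CPM in saline input, a logFC of 0.11 ± 0.39 (−0.71 to 0.93, FDR = 0.863). In DSP-4 mice TRAP ranged from 5.83 to 23.9 CPM (median 15.5) against 23.5 and 19.3 CPM in input, a logFC of −0.47 ± 0.34 (−1.18 to 0.25, FDR = 0.278). Of the DSP-4 TRAP libraries, 4 were below both input libraries, with replicate 1 the lowest, and replicate 8 alone was above both. The intervals admit a difference of more than 1.5-fold in either treatment, so these data do not show that *Htr1a* was equal in the 2 fractions.

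**Figure D2:**
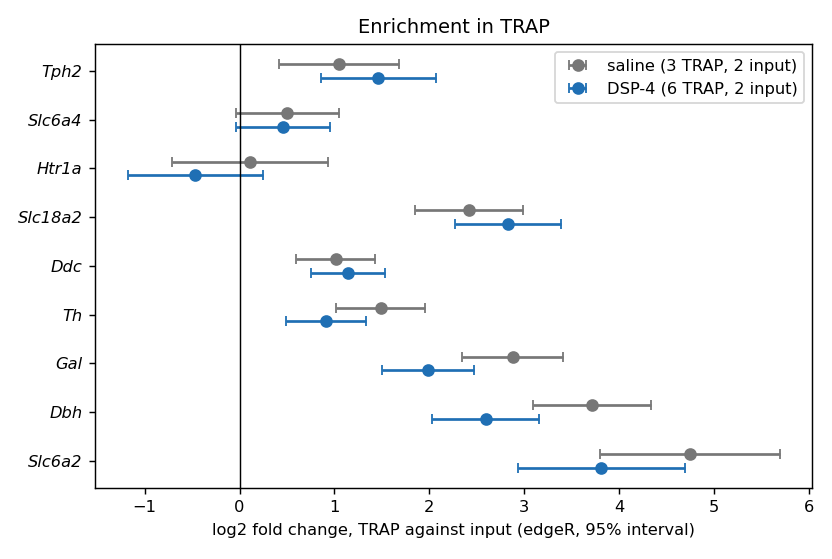
Difference between TRAP and input (logFC, edgeR, with 95% confidence interval) in saline (gray) and DSP-4 (blue) mice, for the 3 serotonergic genes, for *Slc18a2* and *Ddc*, which serotonergic and noradrenergic neurons share, and for 4 noradrenergic genes. *Tph2* lies at 1.05 and 1.46 with intervals above 0, *Slc6a4* at 0.50 and 0.46 and *Htr1a* at 0.11 and −0.47 with intervals that include 0, and *Slc6a2* at 4.75 and 3.81.

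In the pools for which both fractions were sequenced, each TRAP library could be set against its own homogenate. The level of *Tph2* in TRAP was 2.59 times that in input in saline replicate 12, 1.80 times in DSP-4 replicate 2 and 3.61 times in DSP-4 replicate 7. The ratio of *Slc6a4* was 1.36, 0.941 and 1.56 in the same 3 pools. *Tph2* was thus above its homogenate in each of the 3 pools, and *Slc6a4* in all but DSP-4 replicate 2. The ratio of *Slc6a2* was 25.2, 16.4 and 15.1.

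Some other genes of serotonin handling were also higher in TRAP. Of 19 genes of serotonin synthesis, storage and breakdown, 16 were measured, and in saline mice TRAP was higher for 5 of them, lower for 0 and not called for 11, with a median logFC of −0.03 against −0.02 over all genes. The 5 were *Slc18a2* (VMAT2, which loads monoamines into vesicles; logFC 2.42), *Gch1* (the first enzyme of tetrahydrobiopterin synthesis; 1.23), *Pcbd1* (which recycles that cofactor; 1.05), *Maoa* (monoamine oxidase A, which breaks monoamines down; 1.02) and *Ddc* (1.01). All 5 act in catecholamine neurons also, and 4 of them are in the noradrenergic list used here. *Maob*, the oxidase that serotonergic neurons are known for, gave 0.48 (FDR = 0.143). In DSP-4 mice 6 of the 16 were higher and 3 were lower. *Slc18a2* (2.83), *Ddc* (1.15), *Maoa* (0.84) and *Maob* (0.70) were among those higher, and *Gchfr*, the feedback regulator of GCH1, was among those lower (−1.35).

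Few other raphe genes were called in saline mice. Of 23 genes of serotonergic identity and raphe neurons beside the 7, 13 were measured, and in saline mice 1 was higher (*Gad1*, a GABA synthesis enzyme; logFC 1.24), 1 was lower (*En1*, a homeodomain factor of the midbrain and anterior hindbrain; −1.35) and 11 did not pass, with a median of 0.04. In DSP-4 mice 4 were higher and 2 lower, with a median of 0.04 and a range of −0.78 to 1.47 over the 13. The 4 genes named here are those of smallest p, and the 2 lower are not among them. Those higher were *Gad1* (1.47), *Gata3* (1.04), a transcription factor needed for caudal serotonergic neurons, *Tac1* (0.62), which encodes substance P, and *Ret* (0.60), a receptor for neurotrophic factors. Over all genes 35.1% were called in saline mice (15.7% lower in TRAP) and 51.1% in DSP-4 mice (23.8% lower), so neither this list nor that of synthesis, storage and breakdown (9 of 16 called in DSP-4 mice) was far from the background in either treatment, except that only 2 of the 13 raphe genes were called in saline mice.

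Of 12 other serotonin receptor genes 5 were measured. *Htr2c*, the Gq-coupled receptor of many serotonin target neurons, was higher in TRAP (logFC 0.76 in saline and 1.21 in DSP-4 mice), and *Htr7*, a Gs-coupled receptor, was lower (−1.09 and −0.81). The other 3 did not pass, among them *Htr5a* and *Htr5b*, inhibitory receptors, with 0.51 and 0.44 in saline mice. Among 20 measured genes of 22 that carry or regulate 5-HT1 receptor signals, 6 were higher and 4 lower in saline mice. Over all genes 19.5% were called higher and 15.7% lower in saline mice, and 27.3% and 23.8% in DSP-4 mice. Neither the receptors nor the signaling genes were tested against these shares. *Kcnj3*, a subunit of the potassium channel opened by 5-HT1A, gave 1.11 and *Gnai3*, an inhibitory G protein subunit, 0.88, whereas its relative *Gnai2* gave −1.20.

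Markers of cells other than neurons of either kind were also present in TRAP. Of 17 noradrenergic genes, 16 were higher in TRAP in saline mice, with a median logFC of 1.54. Of 11 astrocyte markers 4 were higher and 2 lower, where 35.1% of all genes were called, and their median logFC was 0.21. *Slc1a2*, the glutamate transporter of astrocytes, was at 1.93, *Sox9* at 1.30, *Aqp4* at 0.91 and *Gja1* at 0.71, and the 2 that were lower were *Atp1b2* at −0.88 and *Gfap* at −0.55. The astrocyte markers summed to 4461 to 4605 CPM in saline TRAP, to 4017 to 4136 in saline input and to 4196 to 5218 in DSP-4 TRAP. Of 4 measured dopaminergic genes 2 were higher, *Th* (1.49) and the dopamine transporter gene *Slc6a3* (0.76). The part of RNA from cells without the tag in the enrichment of *Tph2* was not tested.

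No difference beyond the spread between pools was found for the serotonergic genes in TRAP after DSP-4. *Tph2* stood at 83.9, 64.3, 60.6, 118, 113 and 127 CPM in DSP-4 TRAP replicates 1, 2, 3, 7, 8 and 9 and at 93.6, 83.9 and 122 CPM in saline TRAP replicates 4, 6 and 12. The groups overlapped, with 3 DSP-4 libraries below all saline libraries and 1 above. *Tph2* had a logFC of −0.08 ± 0.24 (95% interval −0.60 to 0.43) and FDR = 0.9998 in edgeR's quasi-likelihood test. Without DSP-4 TRAP replicates 2 and 3 the sign turned, to a logFC of 0.14, and leaving out replicate 2, replicate 3 or saline replicate 12 alone gave 0.01, 0.02 and 0.09. Only 0.025% of genes, 3 of 12009, were called in this comparison, all lower in DSP-4, namely *Gal*, *Dbh* and *Slc6a2*. At an unadjusted p under 0.05 there were 226 genes (1.88%).

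*Slc6a4* followed the same course. In DSP-4 TRAP it stood at 27.3, 18.1, 20.5, 30.6, 29.2 and 34.4 CPM in the same order of replicates, and in saline TRAP at 27.2, 28.9 and 29.1 CPM. Of the DSP-4 libraries, 2 were below all saline libraries and 3 above all of them. Its logFC was −0.10 ± 0.21 (−0.56 to 0.36, edgeR FDR = 0.9998), and 0.09 without DSP-4 replicates 2 and 3.

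*Htr1a* had the lowest value of the 3 after DSP-4 but was not called. Its level was 5.83, 19.4, 12.9, 15.7, 23.9 and 15.4 CPM in DSP-4 TRAP, so 5 of 6 libraries were below the saline range of 21.0 to 21.4 CPM and replicate 8 was above it. The logFC was −0.47 ± 0.32 (−1.15 to 0.22, edgeR FDR = 0.9998), and −0.30 without replicate 1, the lowest library. Exact two-sided permutation of the treatment labels (84 arrangements) gave p = 0.690 for *Tph2*, 0.655 for *Slc6a4* and 0.25 for *Htr1a*, where the smallest p the design allows is 0.0119.

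**Figure D3:**
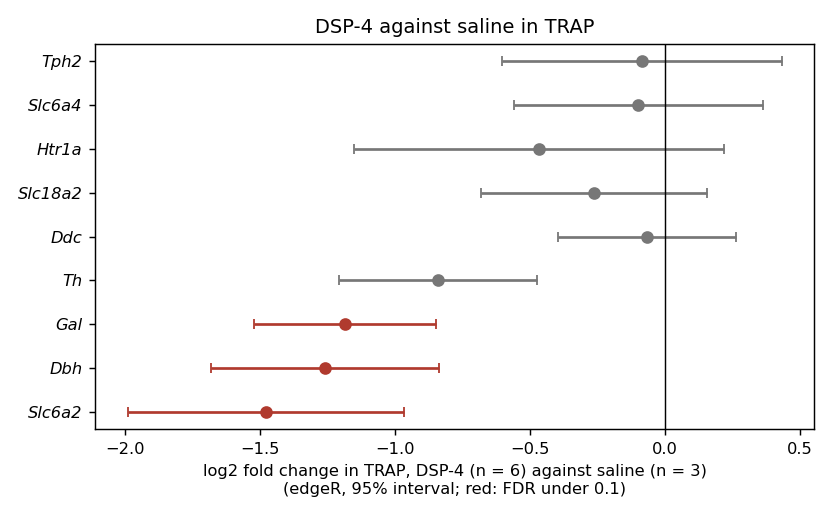
Difference between DSP-4 and saline in TRAP (logFC, edgeR, with 95% confidence interval) for the 3 serotonergic genes, for *Slc18a2* and *Ddc*, and for 4 noradrenergic genes, with those under an FDR of 0.1 in red. *Tph2* (−0.08), *Slc6a4* (−0.10) and *Htr1a* (−0.47) have intervals that include 0, and *Slc6a2* lies at −1.48 with an interval from −1.99 to −0.96.

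For comparison, logFC was −1.48 for *Slc6a2* (95% interval −1.99 to −0.96, FDR = 0.0928), −1.26 for *Dbh*, the enzyme that turns dopamine into norepinephrine, −1.18 for *Gal*, a neuropeptide of LC neurons, and −0.84 for *Th*, the first enzyme of catecholamine synthesis, which missed the FDR threshold (FDR = 0.574). The interval of *Tph2* lay wholly above that of *Slc6a2*, and so did that of *Slc6a4*, whereas that of *Htr1a* overlapped it. *Slc6a2* was chosen as a gene known to be lower in these libraries, and saline samples had been kept by its enrichment. The separation is therefore a description and not a test of a difference between genes. The interval of *Tph2* admits a fall of 0.60 on the log2 scale or a rise of 0.43, and changes inside it were not detectable with these pools. None of the serotonergic lists had a gene called after DSP-4. They held 16 measured genes of synthesis, storage and breakdown, 13 of raphe identity, 5 receptors and 20 of 5-HT1 signaling. Only 0.025% of all genes were called, so the lack of calls does not set these lists apart from the table. The 3 genes called, all lower, are in the noradrenergic list of 17. That list was chosen with earlier results of these data known, so its count is no independent contrast. Over the whole table these 3 calls fell to 0 without any 1 of the saline TRAP libraries or without DSP-4 replicate 1 or 7, and to 1 without DSP-4 replicate 3 or 8. The smallest p of edgeR's test in the serotonergic lists belonged to *Pcbd1* (logFC −0.62, FDR = 0.9998).

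The same libraries allow each serotonergic gene to be read against a noradrenergic gene of the same pulldown, which removes differences in scaling between libraries. The log2 ratio of *Tph2* to *Slc6a2* was −0.43, −0.49 and −0.07 in saline TRAP replicates 4, 6 and 12. In the 6 DSP-4 TRAP libraries it was 0.98, −0.20, 0.87, 2.08, 1.5 and 1.29 for replicates 1, 2, 3, 7, 8 and 9. All of these but that of replicate 2 exceeded every saline library. The ratios are of CPM, not divided by gene length, and serve to compare libraries and not the levels of the 2 genes.

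The mean log2 ratio of *Tph2* to *Slc6a2* was 1.42 higher in DSP-4 mice, that to *Dbh* 1.17 higher and that to *Th* 0.68 higher. For *Slc6a4* the same 3 ratios were 1.41, 1.16 and 0.68 higher. These sizes were almost wholly those of the reference genes. Their mean log2 CPM in DSP-4 TRAP minus that in saline TRAP was −1.54 (*Slc6a2*), −1.29 (*Dbh*) and −0.80 (*Th*), against −0.12 for *Tph2* and −0.12 for *Slc6a4*. The references were chosen as genes known to be lower in these libraries, and saline pools were kept for enrichment of *Slc6a2*, so the ratios are given as a description, with no test.

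**Figure D4:**
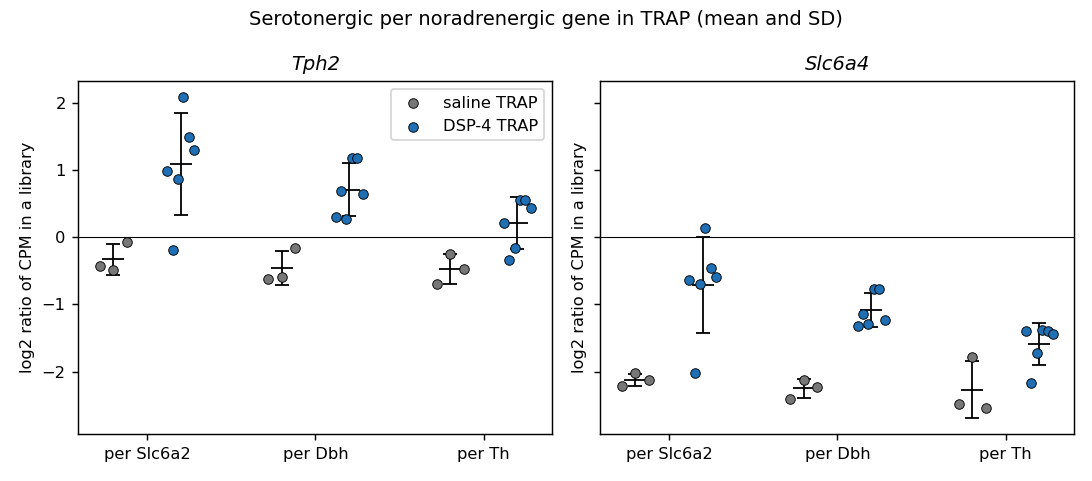
Log2 ratio of the CPM of *Tph2* and of *Slc6a4* to that of each of 3 noradrenergic genes in the 9 TRAP libraries, 1 point per library by treatment, with bars for the mean and SD of each group. For *Tph2* over *Slc6a2* the saline points lie between −0.49 and −0.07 and the DSP-4 points between −0.20 and 2.08.

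In input, the RNA of the whole hindbrain, 0 genes were called between DSP-4 and saline by edgeR, with 306 (2.55%) at an unadjusted p under 0.05, 0 by DESeq2, and 4 called when the 4 input libraries were fitted alone. *Tph2* stood at 35.8 and 32.6 CPM in DSP-4 input against 49.4 and 47.0 CPM in saline input. Both DSP-4 libraries were below both saline libraries, as was the case for 26.3% of genes. *Tph2* had a logFC of −0.49 ± 0.32 (−1.17 to 0.18, edgeR FDR = 0.99996). *Slc6a4*, at 19.2 and 19.6 against 18.6 and 21.5 CPM, had −0.05, and *Htr1a*, at 23.5 and 19.3 against 18.9 and 20.6 CPM, had 0.12, both with overlapping groups.

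The difference in enrichment between DSP-4 and saline mice, tested as an interaction, was 0.41 ± 0.39 for *Tph2* (95% interval −0.41 to 1.24), −0.04 for *Slc6a4* and −0.57 for *Htr1a*, and 0 genes were called, with 321 (2.67%) at an unadjusted p under 0.05. The higher ratio of TRAP to input for *Tph2* in DSP-4 mice, with a median of 2.88 against 1.94 in saline mice, came with a lower level in DSP-4 input and a like level in TRAP. With the replicate number as a fixed block the interaction of *Tph2* was −0.03, and with it as a random block in limma 0.33. Without DSP-4 TRAP replicates 2 and 3 it was 0.64 (edgeR FDR = 0.482).

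The spread between pools was wider in DSP-4 than in saline TRAP over all libraries, but for *Tph2* this rested on replicates 2 and 3. The coefficient of variation over the 6 DSP-4 TRAP libraries was 30.3% for *Tph2*, 23.4% for *Slc6a4* and 39.3% for *Htr1a*, against 19.7%, 3.76% and 1.13% over the 3 saline TRAP libraries. Without DSP-4 replicates 2 and 3 it was 16.8% for *Tph2*, below the saline value, 9.91% for *Slc6a4* and 48.6% for *Htr1a* (n = 4). The difference in spread was not tested. By the methods, saline samples that failed a threshold of *Slc6a2* enrichment had been removed, and no such removal is described for DSP-4 samples. Within the DSP-4 TRAP group *Tph2* and *Slc6a4* were low in the same libraries (replicates 2 and 3) and high in the same libraries (7, 8 and 9).

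Over these 6 libraries the log2 levels of *Tph2* and *Slc6a4* correlated with Pearson's r = 0.95 (exact permutation p = 0.00417, adjusted p = 0.0125 over 3 relations) and Spearman's rho = 0.94 (exact permutation p = 0.0167, adjusted p = 0.05). By r with *Tph2* over these 6 libraries *Slc6a4* ranked 153rd of all genes. The test is against no correlation, so it does not show a link particular to these 2 genes. Replicates 2 and 3 are also the 2 farthest from the median of *Tph2*, and without them r was 0.87 over 4 libraries. *Tph2* and *Htr1a* gave r = 0.21 (exact permutation p = 0.758; rho = 0.20, p = 0.714) and *Tph2* and *Slc6a2* gave r = −0.27 (exact permutation p = 0.611; rho = −0.03, p = 1). Without replicates 2 and 3 these were 0.84 and −0.04, so the value for *Htr1a* depends on those libraries.

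**Figure D5:**
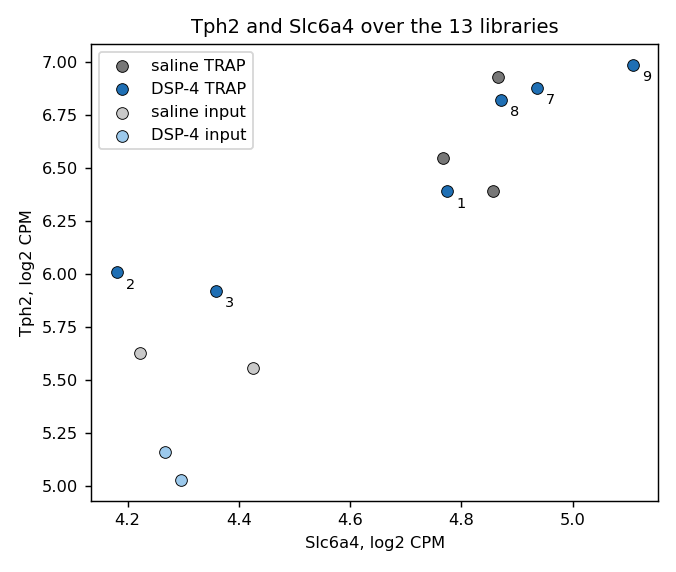
Level of *Tph2* (vertical) against level of *Slc6a4* (horizontal), both in log2 CPM, with 1 point per library by treatment and fraction and the DSP-4 TRAP libraries numbered by replicate. Among these 6, replicates 2 and 3 are low for both genes and replicate 9 is the highest for both.

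The likeness of *Tph2* and *Slc6a4* is not the closest in the table. Over the 9 TRAP libraries they correlated at r = 0.90, and 199 genes had a higher r with *Tph2*, led by *Nap1l3* (0.98), *Usp8*, *Tnik*, *Aldh3a2* and *Mga*. Over all 13 libraries, where the 2 fractions set much of the spread, the nearest were *Zbtb11* (0.99), *Pds5b*, *Tpp2*, *Capn2* and *Zcchc12*, and *Slc6a4* stood at 0.88. Those 199 genes had a median GC content of 45.9% against 49.7% over all genes, and a median logFC of TRAP over input of 0.96 against −0.01. *Tph2* itself has a GC content of 46.4% and *Slc6a4* one of 52.1%. Here the GC content of a gene is that of its longest transcript. The libraries differed in composition along GC content, with a rank correlation between a gene's deviation and its GC content of 0.31 in DSP-4 TRAP replicate 2, in which *Tph2* was low, and of −0.17, −0.30 and −0.20 in replicates 7, 8 and 9, in which it was high. It was 0.06 in replicate 3, where *Tph2* was lowest. The part of base composition in the shared course of *Tph2* and *Slc6a4* was not tested.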

How the data were processed

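RNA was sequenced from TRAP and input fractions of hindbrain in 13 libraries, grouped by treatment and fraction from the sample labels. Per the methods and the submitters' processing notes, reads were aligned by the authors to mm10 (STAR) and assigned to genes (featureCounts), which gave counts. The deposited table is named as filtered and normalized, but it holds whole numbers whose totals differ between libraries, so its values were taken as raw counts, and any scaling before deposit could not be checked. The tool versions, the annotation and any use of strand in counting were not given in the sources used here. The lowest mean count of a gene was 78.4, so genes of low count are absent from the 12009 tested. Columns left unused numbered 0.

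The main test was the two-sided quasi-likelihood test of edgeR 4.0.16 on TMM-scaled counts in R 4.3.3 (alternatives used DESeq2 1.42.0 and limma 3.58.1), with Benjamini-Hochberg adjustment over all 12009 genes and an FDR threshold of 0.1. CPM are TMM-scaled, with 1 as the prior count for log2 values. DSP-4 against saline in TRAP was fitted over the 9 TRAP libraries, and all other comparisons over all 13. The common biological coefficient of variation was 0.271 and 0.250. TRAP libraries come from different pools of mice, and p-values measure the spread between pools. Libraries of 1 group differed by more than sampling noise (chi-square per gene of at least 24.4 between TRAP libraries), and none was counted as a repeat.

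TRAP and input of DSP-4 replicates 2 and 7 and saline replicate 12 come from 1 homogenate each by the methods. The correlation of their deviations from group means was 0.181, 0.266 and 0.295. Pairs from different homogenates ranged from −0.382 to 0.382, so these values do not set the matched pairs apart. With 2 input libraries per group, their deviations mirror each other. The main fits treat TRAP and input of 1 homogenate as independent, and fits with the replicate number as a block were alternatives. Other alternatives changed the scaling, tool, prior count, low-count filter and libraries. A fixed block with all 13 libraries kept was added after seeing the data.

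The members and gene lists were chosen with earlier results of these data known. Genes named are the members, *Slc6a2*, *Dbh*, *Th*, *Gal*, *Slc18a2*, *Ddc*, *Maoa* and *Maob*, up to 4 genes of each other list with the smallest p in the comparison described, and the 5 genes with the highest r with *Tph2* over the 9 TRAP and over all 13 libraries. Gene models are those of GENCODE vM21 on GRCm38 (11560 genes matched), and promoters those of RefSeq. The fits were tested on simulated data. Tables and figures were made in Python 3.11.15 with pandas 2.3.3 and matplotlib 3.10.9.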

Additional observations from a re-analysis of the deposited data

How the results depend on the processing

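*Tph2* was higher in TRAP than in input under each of the 22 alternatives in each treatment and passed the test in all of these but 1 (saline mice without saline input replicate 12, logFC 1.01, with a range of 0.88 to 1.16 over the libraries left out). With the replicate number as a fixed block it was 1.37 in saline mice (FDR = 0.0573 in edgeR), and the number of genes called there fell from 4217 to 1368, or to 1422 with all 13 libraries kept; leaving out 1 library gave 2100 to 5185. In DSP-4 mice 6135 genes were called, and 3678 to 6914 with 1 library left out. *Slc6a4* over both treatments was 0.36 under both fixed blocks (FDR of 0.410 and 0.403), and 0.42 to 0.53 with 1 library left out. A random block in limma kept both calls (*Tph2* in saline mice 1.07, FDR = 0.0105; *Slc6a4* over both treatments 0.45, FDR = 0.0277), and neither kind of block changed another call of a member. The interaction of *Tph2* turned to −0.026 under both fixed blocks, and was 0.33 with the random block and 0.64 without DSP-4 TRAP replicates 2 and 3. In the fixed block with all 13 libraries kept, 1 gene was called over the table. The interaction of *Slc6a4* turned to 0.14 without DSP-4 TRAP replicates 2 and 3, and ranged from −0.15 to 0.057 with 1 library left out. In DSP-4 against saline in TRAP, DESeq2 called 5 genes and leaving out 1 library gave 0 to 3. *Tph2* there was −0.19 to 0.093 with 1 library left out and 0.14 without replicates 2 and 3, for which *Slc6a4* gave 0.094, and the difference of *Tph2* in the exact permutation test was −0.24 to 0.031. In input, 4 genes were called with the 4 libraries fitted alone, and leaving out 1 library gave −0.14 to 0.058 for *Slc6a4* and −0.017 to 0.25 for *Htr1a*. Among the ratios, leaving out 1 library gave 1.22 to 1.68 for *Tph2* to *Slc6a2*, 0.57 to 0.80 for *Tph2* to *Th*, 1.24 to 1.68 for *Slc6a4* to *Slc6a2*, 0.54 to 0.92 for *Slc6a4* to *Th*, 1.07 to 1.31 for *Tph2* to *Dbh* and 1.09 to 1.22 for *Slc6a4* to *Dbh*. Why single libraries change these calls was not tested. No paired analysis was possible between DSP-4 and saline because the 2 treatments share no replicate number. With 2 input libraries per treatment the 95% interval of *Tph2* in input ran from −1.17 to 0.18, and changes inside it were not detectable.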

Other observations

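Markers of other cells were read in the same libraries. No gene of these lists was called between DSP-4 and saline TRAP, where only 0.025% of all genes were called. *Slc6a3*, which marks dopaminergic neurons of the midbrain, was higher in TRAP than in input in saline mice (logFC 0.76) and in DSP-4 mice (0.90). Over all genes 19.5% were called higher and 15.7% lower in TRAP than in input in saline mice. Of 10 oligodendrocyte markers, 0 were higher and 3 lower in TRAP in saline mice, with a median of −0.33. Their summed level ranged from 6986 to 7296 CPM in saline TRAP and from 6031 to 12546 CPM in DSP-4 TRAP. Of 8 microglia markers 0 were higher and 1 lower, with a median of −0.11. Of 6 markers of cerebellar granule cells, whose tissue was discarded at dissection, 1 was higher (*Gabra6*), and they summed to 128 to 458 CPM in saline TRAP. The 3 measured pituitary hormone genes summed to 6.87 to 490 CPM in DSP-4 TRAP, 16.1 to 39.4 CPM in saline TRAP and 27.9 to 357 CPM in saline input. Their part in the levels of the serotonergic genes was not tested.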
